A study of Mus musculus with 16 samples.

Results

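Messenger RNA levels of 9 tricarboxylic acid cycle enzyme genes were followed in activated mouse CD8+ T cells across 4 media. The genes are Cs, Idh3a, Idh3b, Idh3g, Ogdh, Dlst, Suclg1, Fh1 and Mdh2. They were chosen by name as enzymes of the cycle, with earlier results of these data known. All 9 are among the 17159 genes of the depth-normalized table and among the 12469 genes that passed a minimum mean of 10. The cells were C57BL/6 CD8+ T cells stimulated for 2 days through CD3 and CD28 and then held for 36 h in a test medium. The test media were medium conditioned by B16F10 mouse melanoma cells with methionine added back (supplemented supernatant), the same conditioned medium with none added (supernatant), fresh medium lacking methionine (methionine-free fresh medium) and fresh medium containing it (complete fresh medium). Each medium had 4 libraries, numbered as replicates 0 to 3. The labels do not state whether these came from separate mice or cultures, so the p-values describe the spread between libraries, which may be technical. All groups shared the strain, the antibody stimulation and the time in the medium, and the amount of methionine in the supernatant is not given in the sources used here.

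The cycle oxidises acetyl groups in the mitochondrial matrix and passes the electrons to the respiratory chain. Citrate synthase joins acetyl-CoA to oxaloacetate, isocitrate dehydrogenase and the oxoglutarate dehydrogenase complex release carbon dioxide, and succinyl-CoA ligase, succinate dehydrogenase, fumarase and malate dehydrogenase return the carbon to oxaloacetate. In activated T cells the cycle also supplies citrate for lipid synthesis and aspartate for nucleotides. Its intermediates oxoglutarate, succinate and fumarate act on enzymes that remove methyl groups from histones and DNA.

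The libraries held 25799636 to 42308209 reads as recovered from the deposited values. Values below are depth-normalized reads, meaning reads divided by a size factor for each library. Fold changes are differences of log2(value + 1), given with their standard error, and adjusted p-values come from limma with Benjamini-Hochberg adjustment over all 12469 genes, called below 0.05. The CD8+ T cell markers Cd8a, Cd8b1, Cd3d, Cd3e and Cd3g were all present, and summed to 87787 to 93978 in supplemented supernatant, 77811 to 78972 in supernatant, 67237 to 68587 in methionine-free fresh medium and 81951 to 85403 in complete fresh medium. These 5 markers did not move together. In methionine-free over complete fresh medium 3 were called lower, 1 higher and 1 not called. Their median log2 fold change was -0.77, and 85.6% of all genes were called. Cd3g had 4931 ± 90.9 reads in methionine-free and 15789 ± 484 in complete fresh medium, and Cd8a 30626 ± 350 and 24492 ± 356 (SD, n = 4 each). Markers of other cells summed to far less and also moved with the media. All 5 listed B cell markers were in the table, and their sum was 363 to 385, 731 to 858, 778 to 966 and 503 to 542 in the same order of media. The 6 of 7 melanoma markers in the table summed to 91.0 to 144, 231 to 257, 257 to 282 and 103 to 134. Of these, Pmel had 27.9 ± 5.16, 131 ± 12.3, 176 ± 5.38 and 29.1 ± 4.81 reads and Tyr 52.8 ± 12.9, 54.2 ± 8.31, 37.8 ± 8.08 and 62.2 ± 15.6 in that order, so the 2 genes ordered supernatant and methionine-free fresh medium differently. Tyrp1 was at 0 in every library of both fresh media, Dct in complete fresh medium and Mlana in supplemented supernatant. The 4 of 6 myeloid markers in the table summed to 26.4 to 44.2, 88.9 to 96.3, 68.2 to 88.7 and 39.1 to 63.0. The 4 CD4 T cell markers summed to 3323 to 3609.5, 4101 to 4610.0, 3976 to 4121 and 1976 to 2142, with Cd4 itself at 137 ± 2.13, 172 ± 23.1, 163 ± 17.5 and 182 ± 20.8 (SD, n = 4 each). Cd4 was not called in methionine-free over complete fresh medium, while Zbtb7b, Foxp3 and Cd40lg, the other 3, were called higher (43.3% of all genes were). In the same order of media Foxp3 had 156, 233, 196 and 50.8 reads, Zbtb7b 3208, 3874, 3672 and 1781, and Cd40lg 20.7, 44.6, 38.5 and 22.7 (means). The 5 NK cell markers, of which Eomes and Nkg7 are also expressed by activated CD8+ T cells, summed to 18143 to 19801, 14163 to 14837, 12184 to 12748 and 15278 to 15668 in the same order of media. Nkg7 made up most of this sum (means 16042, 11284, 10315 and 14076), and the 5 did not move together. In methionine-free over complete fresh medium 2 were called lower, 2 higher and 1 not called (median 0.32). In supernatant over complete fresh medium 2 were lower and 3 higher (median 0.86), where 42.5% and 43.0% of all genes were. The part of these cells in the results below was not tested.

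Removing methionine from fresh medium lowered most of the cycle genes and raised the gene for the E2 subunit of the oxoglutarate dehydrogenase complex. Fh1, the fumarase gene, fell 3.57-fold and Cs, the citrate synthase gene, fell 2.75-fold, while Dlst rose 1.78-fold. In methionine-free against complete fresh medium, 7 of the 9 genes were called lower and 2 higher, where 85.6% of all genes tested were called, 42.3% lower and 43.3% higher. The median log2 fold change of the 9 genes was -0.82, against 0.0092 over all genes. The groups did not overlap for any of the 9 genes, as for 81.3% of all genes. Most genes changed in this comparison, so a call alone does not set the cycle genes apart. In bulk RNA, fewer cells with a transcript and less of it per cell cannot be told apart.

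Melanoma supernatant, set against complete fresh medium, gave the same directions gene by gene. Again 7 of 9 genes were called lower and 2 higher, with 85.5% of all genes called, 42.5% lower and 43.0% higher, and again no gene's groups overlapped (80.0% of all genes). Fh1 fell 3.41-fold, Cs 2.65-fold and Suclg1, the alpha subunit gene of succinyl-CoA ligase, 2.19-fold, and Dlst rose 1.67-fold. The median was -0.73. This comparison and the one above share the 4 libraries of complete fresh medium.

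Methionine added to the supernatant moved every one of the 9 genes the other way. In supplemented supernatant against supernatant, 7 genes were called higher and 2, Dlst and Ogdh, lower, where 83.7% of all genes were called, 41.8% higher and 41.8% lower. No gene's groups overlapped, as for 78.1% of all genes, and the median log2 fold change was 0.75. Fh1 rose 3.10-fold, Cs 2.49-fold and Suclg1 2.10-fold.

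**Figure D1:**
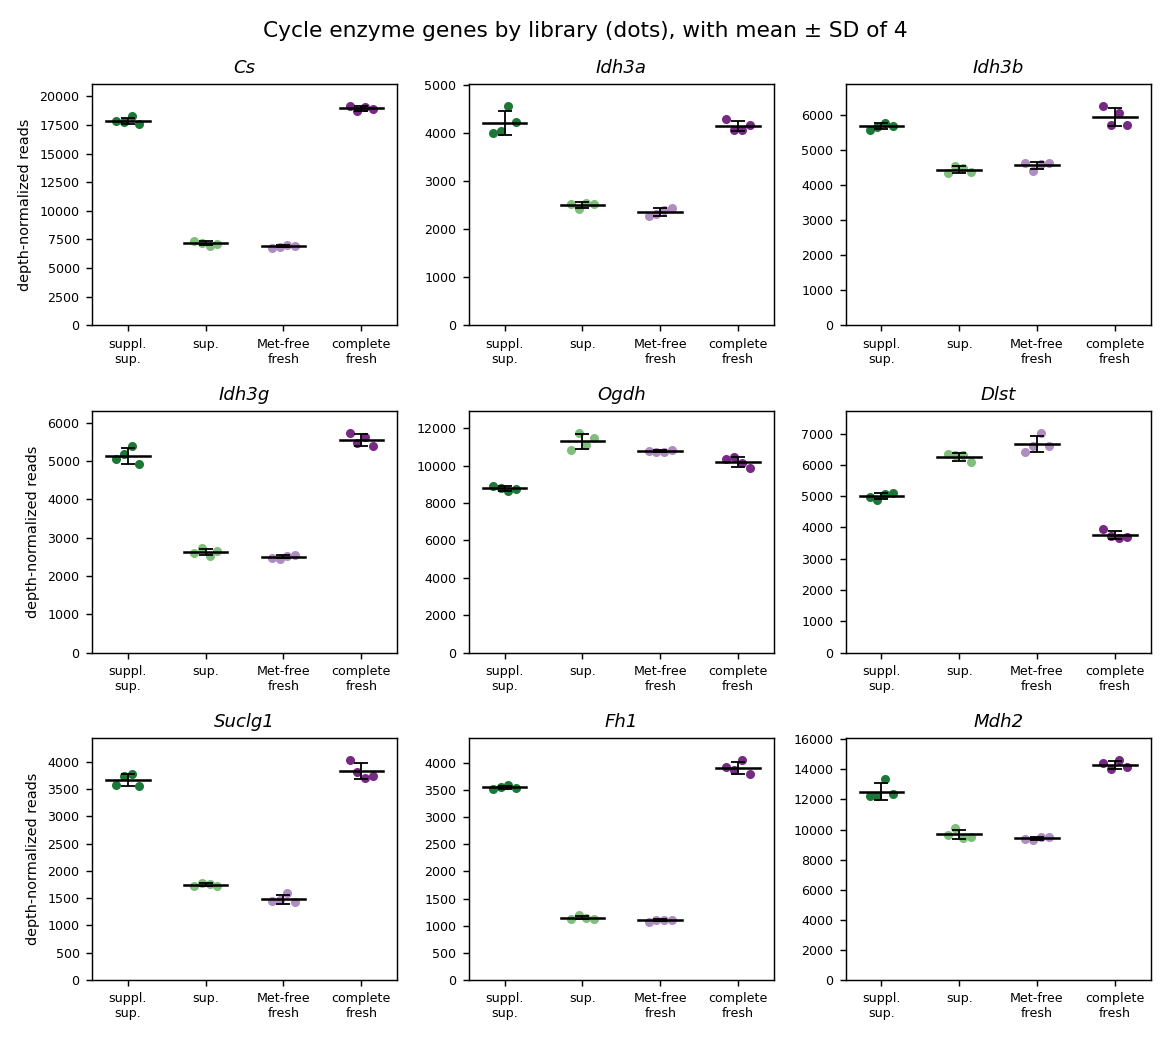
Depth-normalized reads (vertical axis, from 0) of each of the 9 genes in each library (dots), with the mean and SD of 4 libraries (bars), in supplemented supernatant, supernatant, methionine-free fresh medium and complete fresh medium. In 7 panels the outer media with methionine lie above the inner ones without added methionine, while Dlst runs the other way and Ogdh is lowest in supplemented supernatant.

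Cs stands at the entry of the cycle, and its changes in the 3 comparisons above were second in size to those of Fh1. It had 17810.0, 17765, 18245 and 17539 reads in supplemented supernatant and 7397, 7158, 6969.8 and 7097 in supernatant. In methionine-free fresh medium it had 6786, 6878, 7004 and 6941 reads, against 19177, 18671, 19087 and 18907 in complete fresh medium. The media with methionine lay far above those without added methionine, and supernatant and methionine-free fresh medium overlapped. Its log2 fold change was -1.46 ± 0.026 for methionine-free over complete fresh medium (adjusted p 3.98e-31), lower than that of all but 6.96% of genes. It was -1.41 ± 0.026 for supernatant over complete fresh medium (adjusted p 1.28e-30) and 1.32 ± 0.026 for supplemented supernatant over supernatant (adjusted p 1.34e-29).

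Fh1 encodes fumarase, which hydrates fumarate to malate, and had the largest changes of the 9 genes in those comparisons. It had 3529, 3549, 3590.4 and 3546 reads in supplemented supernatant and 1126, 1192, 1138 and 1130.4 in supernatant. It had 1069.9, 1112, 1097 and 1102 reads in methionine-free fresh medium, against 3919, 3874, 4057 and 3789 in complete fresh medium. No pair of media overlapped. The log2 fold change was -1.83 ± 0.035 without methionine in fresh medium (adjusted p 1.28e-30), and 4.23% of genes lay below it. It was -1.77 ± 0.035 in supernatant over complete fresh medium and 1.63 ± 0.035 on adding methionine to supernatant (adjusted p 3.70e-30 and 6.15e-29). Fh1 overlaps Kmo, a gene on the opposite strand, over 5255 bases, and the strand used in counting is not given in the sources used here. Kmo had 202 ± 17.9, 52.7 ± 13, 55.7 ± 5.09 and 104 ± 7.54 reads (SD, n = 4 each) in the order of media above, well under Fh1 in each.

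Dlst encodes the dihydrolipoyl succinyltransferase, the E2 core of the oxoglutarate dehydrogenase complex that carries the lipoate arm. It ran against the other genes except Ogdh. It had 4983, 4861, 5054 and 5099 reads in supplemented supernatant and 6340.1, 6309, 6319 and 6078 in supernatant. It had 6416, 6612, 7025 and 6588 reads in methionine-free fresh medium, against 3937, 3713, 3652 and 3684 in complete fresh medium. The highest values were those of methionine-free fresh medium, the lowest those of complete fresh medium, and no pair of media overlapped. Dlst rose by 0.83 ± 0.032 on the log2 scale without methionine in fresh medium (adjusted p 4.32e-22), above 82.3% of genes, and by 0.74 ± 0.032 in supernatant over complete fresh medium (adjusted p 1.02e-20). Adding methionine to supernatant gave -0.32 ± 0.032 (adjusted p 3.84e-11).

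The stretches before the RefSeq start sites of Cs, Fh1 and Dlst are shown because these genes mark the extremes, with Cs and Fh1 low without methionine and Dlst high. Of the 9 genes, 8 have an entry in the RefSeq promoter table (build GRCm38.p6), and Idh3a does not. Each line gives the 250 bases before the start, 5′ to 3′ on the gene's strand, with CCAAT boxes (CCAAT, both strands) and GC boxes (GGGCGG, both strands) in capitals.
Cs, chr10:128337477-128337726, plus strand: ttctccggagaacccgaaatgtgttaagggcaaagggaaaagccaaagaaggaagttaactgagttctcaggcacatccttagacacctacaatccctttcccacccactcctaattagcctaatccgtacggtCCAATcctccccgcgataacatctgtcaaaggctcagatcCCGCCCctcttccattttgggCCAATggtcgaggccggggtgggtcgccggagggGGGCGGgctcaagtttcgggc
Fh1, chr1:175625636-175625885, minus strand: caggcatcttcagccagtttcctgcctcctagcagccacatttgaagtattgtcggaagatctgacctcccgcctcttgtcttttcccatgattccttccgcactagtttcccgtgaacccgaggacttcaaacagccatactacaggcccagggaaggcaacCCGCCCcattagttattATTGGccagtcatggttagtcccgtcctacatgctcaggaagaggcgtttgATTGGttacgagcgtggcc
Dlst, chr12:85110583-85110832, plus strand: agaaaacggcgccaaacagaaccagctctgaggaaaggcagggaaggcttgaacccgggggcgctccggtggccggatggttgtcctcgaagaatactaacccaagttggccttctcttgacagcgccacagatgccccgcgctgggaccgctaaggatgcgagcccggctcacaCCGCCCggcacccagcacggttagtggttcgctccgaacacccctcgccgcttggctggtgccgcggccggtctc
Cs and Fh1 each hold 2 CCAAT boxes and Dlst none, and 33.8% of all 32851 windows of this length hold at least 1. CCAAT boxes also lie before Idh3b, which fell without methionine, and before some starts of Ogdh, which did not fall. None lie before Idh3g, Suclg1 and Mdh2, which fell. GC boxes are in all 3 windows shown, as in 32.7% of all windows. GC content is 55.2% for Cs, 52.8% for Fh1 and 64.8% for Dlst. A search on both strands for 6 other motifs found none in these 3 windows. These were the E-box CACGTG (6.02% of all windows), the ETS site CCGGAAGT (2.88%), the palindromic NRF1 site (3.74%), the site AAGGTCA of estrogen-related receptors (4.08%), the cyclic AMP response element TGACGTCA (1.55%) and the amino acid response core TGATGNAA (3.45%). Among the other members, Mdh2 holds TGACGTCA and Ogdh, in windows of different starts, both TGACGTCA and CACGTG. No matches overlapped in the windows shown. A match describes the letters and not binding.

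Ogdh, the E1 subunit of the same complex, which decarboxylates oxoglutarate, changed least of the 9 genes on removing methionine from fresh medium. It had 8927, 8801, 8645 and 8766 reads in supplemented supernatant and 10849.8, 11758, 11094 and 11506 in supernatant. It had 10780.5, 10709, 10736 and 10849 reads in methionine-free fresh medium, against 10380.1, 10478, 10144 and 9869 in complete fresh medium. Supplemented supernatant lay below all other media. The log2 fold change was 0.076 ± 0.028 for methionine-free over complete fresh medium (adjusted p 0.0138). Without replicate 3 of complete fresh medium it was 0.06 and not called (limma, adjusted p 0.0565). In the deposited FPKM (fragments per kilobase of transcript, scaled to the mapped fragments of the library) it was 0.0375 and not called (limma, adjusted p 0.672), while scaling by total reads or by quantiles gave 0.24 and 0.26. It was 0.15 ± 0.028 for supernatant over complete fresh medium (adjusted p 2.07e-05). That change was 0.064 and not called on FPKM (limma, adjusted p 0.459), and 0.29 and 0.31 under those other scalings. Adding methionine to supernatant changed Ogdh by -0.36 ± 0.028 (adjusted p 1.38e-13).

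The 3 subunit genes of NAD-dependent isocitrate dehydrogenase, whose alpha subunit is catalytic and whose beta and gamma subunits complete and regulate the enzyme, all fell without methionine but by different amounts. Idh3g had 5060.3, 5186, 5387 and 4913 reads in supplemented supernatant and 2594, 2736, 2535 and 2655 in supernatant. It had 2482, 2452, 2520.4 and 2543 in methionine-free fresh medium, against 5740.3, 5477, 5635 and 5393 in complete fresh medium, a log2 fold change of -1.15 ± 0.033 (adjusted p 1.62e-25). The media without added methionine lay far below the others and overlapped each other. Idh3a had 4008, 4048, 4567 and 4217 reads in supplemented supernatant and 2525, 2418, 2538 and 2524 in supernatant. It had 2265, 2309.7, 2406 and 2437 reads in methionine-free fresh medium, against 4286, 4067, 4067 and 4169.5 in complete fresh medium, a log2 fold change of -0.82 ± 0.037 (adjusted p 5.37e-20). Supplemented supernatant and complete fresh medium overlapped for Idh3a. Idh3b had 5563, 5649, 5769.6 and 5685 reads in supplemented supernatant and 4343, 4547, 4477 and 4362 in supernatant. It had 4617, 4396, 4594 and 4613 reads in methionine-free fresh medium, against 6256, 5718, 6033 and 5710.3 in complete fresh medium, a log2 fold change of -0.38 ± 0.032 (adjusted p 6.02e-13). For Idh3b both media with methionine overlapped each other, as did both without added methionine. The 95% intervals of the changes without methionine in fresh medium, -1.22 to -1.09 for Idh3g, -0.89 to -0.74 for Idh3a and -0.44 to -0.32 for Idh3b, did not overlap. In supernatant over complete fresh medium the changes were -1.08 ± 0.033, -0.73 ± 0.037 and -0.42 ± 0.032 in that order, and on adding methionine to supernatant 0.97 ± 0.033, 0.75 ± 0.037 and 0.35 ± 0.032. With total-read scaling, which moved the median of all genes to 0.17, 0.15 and -0.14 in these comparisons, the Idh3b changes were -0.22, -0.27 and 0.22.

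Suclg1 encodes the alpha subunit shared by both forms of succinyl-CoA ligase, which make GTP or ATP. It had 3572, 3742, 3779 and 3565 reads in supplemented supernatant and 1722, 1776, 1758 and 1721 in supernatant. It had 1442, 1458, 1594 and 1418 reads in methionine-free fresh medium, against 4035, 3820.0, 3710.0 and 3737 in complete fresh medium. Supplemented supernatant and complete fresh medium overlapped, and supernatant lay above methionine-free fresh medium with no overlap. Its log2 fold change was -1.37 ± 0.038 without methionine in fresh medium (adjusted p 4.67e-26) and 1.07 ± 0.038 on adding methionine to supernatant (adjusted p 7.44e-23). Mdh2, mitochondrial malate dehydrogenase, which regenerates oxaloacetate, changed less. It had 12215, 12208, 13353 and 12335 reads in supplemented supernatant and 9646, 10104, 9404 and 9526 in supernatant. It had 9398, 9285, 9499 and 9485 reads in methionine-free fresh medium, against 14438, 14006, 14630.3 and 14186 in complete fresh medium. Supplemented supernatant lay between complete fresh medium and the media without added methionine, which overlapped each other. The changes were -0.60 ± 0.03 without methionine in fresh medium (adjusted p 6.26e-19), -0.57 ± 0.03 in supernatant (adjusted p 3.77e-18) and 0.37 ± 0.03 with methionine added to supernatant (adjusted p 3.13e-13). The last of these was 0.24 with total-read scaling and 0.21 with quantile normalization.

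**Figure D2:**
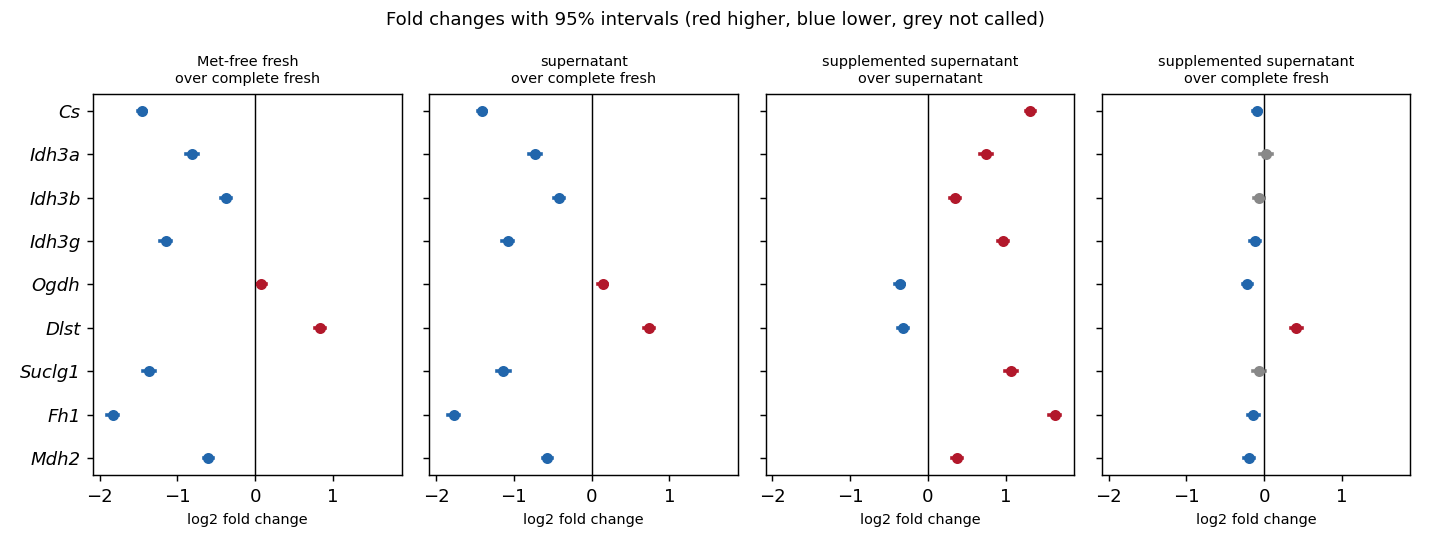
Log2 fold change (horizontal axis) of each gene in 4 comparisons, as dots with 95% intervals, red where called higher, blue where called lower and grey where not called. Fh1 has the lowest value of the 9 genes in the first 2 panels (-1.83 and -1.77) and the highest in the third (1.63). In the last panel Dlst is highest (0.42) and Ogdh lowest (-0.22), with 5 genes called lower, 1 higher and 3 not called.

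Supplemented supernatant came close to complete fresh medium for most of the cycle genes. Mean reads in supplemented supernatant were 102% of those in complete fresh medium for Idh3a, 95.8% for Suclg1 and 95.6% for Idh3b. They were 94.1% for Cs, 92.4% for Idh3g and 90.9% for Fh1. Mdh2 and Ogdh stood lower, at 87.5% and 86.0%, and Dlst higher, at 133%. In this comparison 5 genes (Cs, Idh3g, Ogdh, Fh1 and Mdh2) were called lower, 1 (Dlst) higher and 3 were not called, where 65.0% of all genes were called, 32.5% lower and 32.5% higher. The log2 fold changes were 0.42 ± 0.032 for Dlst (adjusted p 3.44e-13), -0.22 ± 0.028 for Ogdh (adjusted p 4.53e-08) and -0.19 ± 0.03 for Mdh2 (adjusted p 1.20e-06). The groups did not overlap for 6 of the 9 genes, where 56.1% of all genes had groups that did not overlap. For the genes not called, the 95% intervals were -0.06 to 0.10 for Idh3a, -0.13 to just under 0 for Idh3b and -0.14 to 0.02 for Suclg1. Idh3b was called lower without replicate 1 or replicate 3 of complete fresh medium (both -0.082) and by DESeq2 on the recovered reads (-0.07). On FPKM only Ogdh of the 9 genes was called lower and only Dlst higher (limma without the replicate block, log2 fold change -0.26 and 0.38, adjusted p 0.0207 and 0.0276), while with the replicate number as a block Cs, Fh1 and Mdh2 were called lower as well.

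Supernatant differed little from methionine-free fresh medium in these genes. Suclg1 was called higher in supernatant (0.24 ± 0.038, adjusted p 8.80e-06), Dlst lower (-0.088 ± 0.032, adjusted p 0.0369) and the other 7 were not called, with 26.8% of all genes called in this comparison. The groups did not overlap for Ogdh (apart by less than 1 read), Dlst, Suclg1 and Fh1, 4 of the 9 genes, where 28.7% of all genes had groups that did not overlap. On FPKM, limma called 0 of the 9 genes, with 1 at an unadjusted p below 0.05 (1 called, higher, with the replicate block), and edgeR on the recovered reads called 2. The Dlst call was lost without replicate 1 or 2 of methionine-free fresh medium or replicate 2 or 3 of supernatant (limma, log2 fold change -0.062 to -0.093, adjusted p 0.0558 to 0.19). For the genes not called, the lower ends of the 95% intervals ran down to -0.10 (Idh3b) and the upper ends up to 0.16 (Idh3a).

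The effect of methionine was smaller in supernatant than in fresh medium for most of the genes. The interaction, the methionine effect in supernatant minus that in fresh medium, was called for 7 of 9 genes, 6 lower and 1 higher, where 52.6% of all genes were called, 25.0% lower and 27.6% higher. It was 0.50 ± 0.045 for Dlst (adjusted p 3.08e-11), whose fall with methionine was smaller in supernatant, and -0.29 ± 0.04 for Ogdh (adjusted p 3.24e-07), whose fall with methionine was larger there. For the 5 genes that rose with methionine in both media and were called, it was -0.30 ± 0.054 (Suclg1, adjusted p 1.75e-05), -0.23 ± 0.042 (Mdh2), -0.20 ± 0.049 (Fh1), -0.19 ± 0.047 (Idh3g) and -0.14 ± 0.037 (Cs). Idh3a and Idh3b were not called (-0.068 ± 0.053 and -0.025 ± 0.045, adjusted p 0.291 and 0.664). On FPKM, limma without the replicate block called 0 of the 9 interactions, with 3 at an unadjusted p below 0.05, and with the block it called 7, 6 lower and 1 higher, while edgeR on the recovered reads called 7.

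Levels of different genes can be set side by side only per transcript length, which FPKM gives. Mdh2 stood highest in every medium, at 339.5 ± 57.8 FPKM in supplemented supernatant, 246 ± 37.2 in supernatant, 231 ± 29.4 in methionine-free fresh medium and 382 ± 39.0 in complete fresh medium (SD, n = 4 each). The order below it changed with methionine. In supplemented supernatant Mdh2 was followed by Cs (169 ± 8.40), Idh3g (126 ± 4.50), Idh3b (111 ± 5.38), Suclg1 (87.5 ± 4.46), Fh1 (72.5 ± 7.19) and Idh3a (52.2 ± 6.33). There Dlst (49.1 ± 3.35) stood above Ogdh (35.0 ± 1.37), and the overlaps were between Suclg1 and Fh1 and between Idh3a and Dlst. In supernatant Idh3b (85.1 ± 6.75), Cs (66.3 ± 5.17), Dlst (62.1 ± 7.11), Idh3g (61.2 ± 2.43), Ogdh (43.7 ± 1.69), Suclg1 (39.8 ± 1.01), Idh3a (29.8 ± 5.56) and Fh1 (22.1 ± 1.92) followed Mdh2, with overlaps from Cs through Idh3g and between Idh3a and Fh1. In methionine-free fresh medium the order was Idh3b (86.4 ± 3.76), Dlst (65.8 ± 8.36), Cs (64.4 ± 4.68), Idh3g (57.5 ± 3.16), Ogdh (42.9 ± 1.73), Suclg1 (33.9 ± 2.54), Idh3a (30.4 ± 3.75) and Fh1 (21.8 ± 1.24), with overlaps between Dlst and Cs, between Cs and Idh3g and between Suclg1 and Idh3a. In complete fresh medium Cs (183 ± 11.4), Idh3g (137 ± 11.4), Idh3b (118 ± 5.85), Suclg1 (91.0 ± 1.76), Fh1 (81.7 ± 6.77), Idh3a (53.2 ± 5.31), Ogdh (41.8 ± 1.71) and Dlst (37.6 ± 3.06) followed. Their neighbours overlapped between Idh3g and Idh3b, between Suclg1 and Fh1 and between Ogdh and Dlst. Dlst thus stood in the third place in methionine-free fresh medium and last in complete fresh medium, while Fh1 was last in methionine-free fresh medium. Summed over the 9 genes, FPKM was 1042 ± 58.4 in supplemented supernatant, 656 ± 40.7 in supernatant, 634 ± 39.9 in methionine-free fresh medium and 1125 ± 46.0 in complete fresh medium (SD, n = 4 each).

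**Figure D3:**
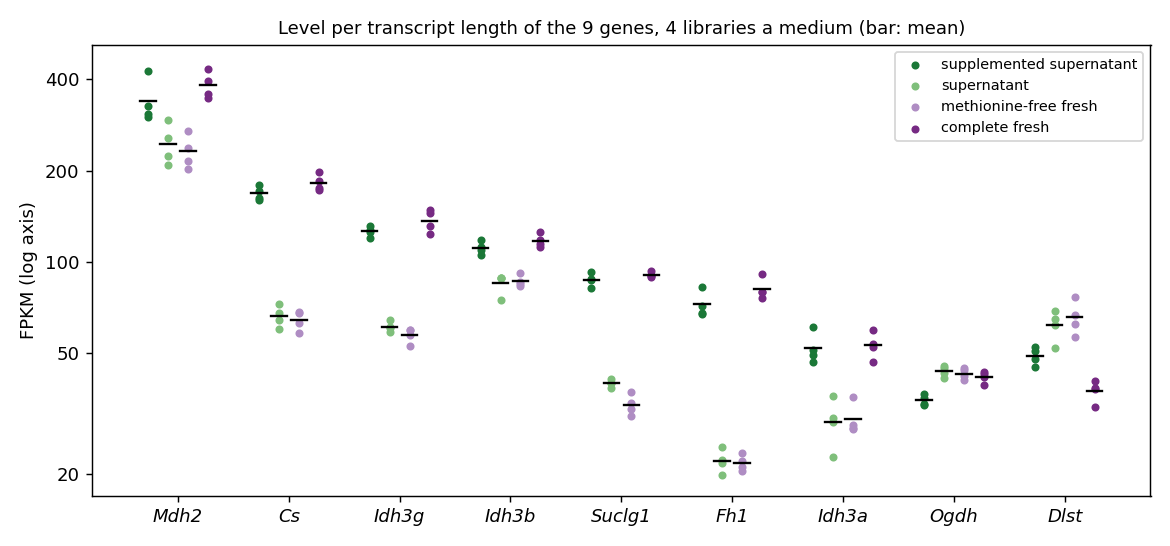
FPKM (vertical log axis) of the 9 genes in each library (dots), with the mean of 4 libraries (bars), for the 4 media from left to right within each gene. Mdh2 is highest in every medium, Dlst is higher in the media without added methionine, and the other genes except Ogdh are lower there.

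Subunit genes of 1 complex changed by different amounts, and the ratios of their reads differed between media. The ratio of Idh3g to Idh3b reads was 0.906 ± 0.0298 in supplemented supernatant, 0.594 ± 0.0187 in supernatant, 0.549 ± 0.00846 in methionine-free fresh medium and 0.938 ± 0.0170 in complete fresh medium (SD, n = 4 each). Read ratios depend on transcript lengths, so only their changes between media are described. The ratio of Dlst to Ogdh reads was 0.569 ± 0.0163, 0.555 ± 0.0266 and 0.619 ± 0.0256 in the same media, against 0.367 ± 0.0115 in complete fresh medium, so supplemented supernatant stood with the media lacking added methionine. Dld, the E3 subunit that this complex shares with pyruvate dehydrogenase, had 4777 ± 77.4 reads in supplemented supernatant, 4341 ± 231 in supernatant, 4493 ± 198 in methionine-free fresh medium and 3990.3 ± 147 in complete fresh medium. The ratio of Dlst to Dld was 1.05 ± 0.0313, 1.45 ± 0.0710, 1.48 ± 0.0852 and 0.939 ± 0.0188 in that order. For the ratio of Suclg1 to Suclg2, its partner in the GTP-forming ligase, the values were 1.23 ± 0.0657, 0.865 ± 0.0476, 0.789 ± 0.0263 and 1.5 ± 0.0910. The ratio of Suclg1 to Sucla2, its partner in the ATP-forming ligase, was 1.53 ± 0.0582 in supplemented supernatant, 0.931 ± 0.0387 in supernatant, 0.779 ± 0.0425 in methionine-free fresh medium and 1.37 ± 0.0713 in complete fresh medium. Both ligase ratios were lower in the media without added methionine.

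**Figure D4:**
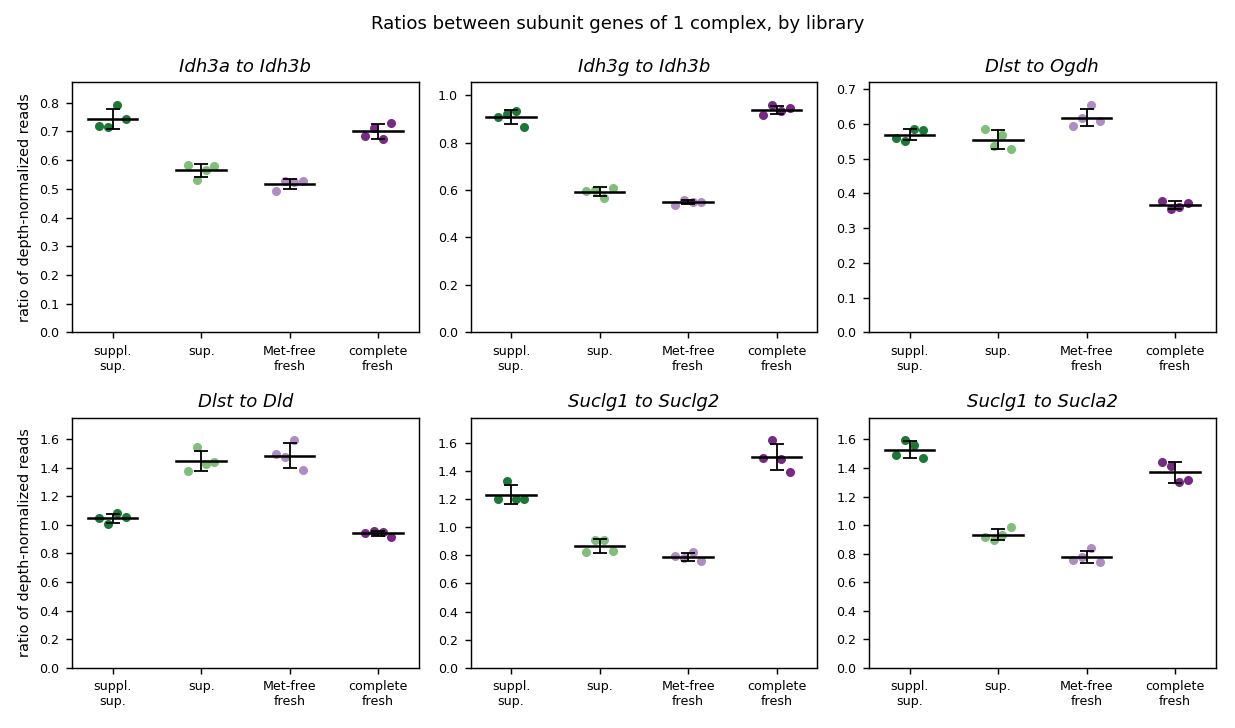
Ratio of depth-normalized reads (vertical axis, from 0) between pairs of genes in each library (dots), with the mean and SD of 4 libraries (bars), for the 4 media. The ratios of Idh3a and Idh3g to Idh3b are lower in supernatant and methionine-free fresh medium, as are those of Suclg1 to both of its partners, and the ratio of Dlst to Ogdh is lowest in complete fresh medium.

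The 9 genes were also set beside all other genes by the shape of their 4 group means, centred on each gene's own mean. Among 9509 annotated genes with a mean of at least 100, the nearest to Dlst were Wdr82 and Gtf3c6, at a root mean square distance of 0.0092 and 0.015 on the log2 scale. The nearest to Idh3g were Scly (0.0048), a selenocysteine lyase gene, and Slc25a5 (0.013), which encodes an ADP/ATP carrier of the inner mitochondrial membrane. Cs lay nearest to Cacnb3 (0.02) and Arhgdib (0.02), and Fh1 to Prcp (0.023) and Phka2 (0.044). Ogdh lay nearest to Slc41a1 (0.011) and Neu3 (0.011), and Mdh2 to Clasp1 (0.0093) and Polg2 (0.01). Idh3a was nearest to Slc25a17 (0.016) and Cdk16 (0.018), Idh3b to Sec11a (0.011) and Vrk3 (0.011), and Suclg1 to Apba3 (0.022) and Ifitm2 (0.023). Within the 9 genes, Idh3b and Mdh2 were closest (0.081) and Dlst and Fh1 farthest apart (1.17). These distances describe 4 means of the same 16 libraries and were not tested.

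Most other enzymes of the cycle also fell without methionine. For lists here and below, the shares of all genes called lower and higher were 42.3% and 43.3% in methionine-free over complete fresh medium. They were 42.5% and 43.0% in supernatant over complete fresh medium, and 41.8% each in supplemented supernatant over supernatant. Of 8 genes (Idh2, Dld, Sucla2, Suclg2 and the 4 succinate dehydrogenase subunit genes), 7 were called lower and 1, Dld (0.17 ± 0.037), higher in methionine-free over complete fresh medium, with a median of -0.55. Sdhb, the iron-sulfur subunit, changed by -1.91 ± 0.041 and Idh2, the NADP-dependent mitochondrial enzyme, by -1.64 ± 0.045. On FPKM the Dld call was lost without the replicate block (limma, adjusted p 0.321) and kept with it. In supernatant over complete fresh medium again 7 were lower and 1, Dld (0.12 ± 0.037), higher (median -0.60). The Dld call was lost there too on FPKM (0.099, limma, adjusted p 0.719, or 0.129 with the replicate block). On adding methionine to supernatant all 8 were called higher (median 0.42), with Sdhb at 1.78 ± 0.041, Idh2 at 1.27 ± 0.045, Sdhd, a membrane anchor, at 0.14 ± 0.032 and Dld at 0.14 ± 0.037. With total-read scaling or on FPKM the Sdhd and Dld calls were lost there, with changes of 0.0053 to 0.12, and 5 of the 8 were called higher on FPKM.

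Genes of pyruvate entry mostly followed the same direction. Of 14 listed, 13 were tested, and the carrier genes Mpc1 and Mpc2 stand in the table under their older symbols Brp44l and Brp44. Without methionine in fresh medium 10 were lower and 3 higher (median -0.49), where 42.3% of all genes were called lower and 43.3% higher. Pdk1, a kinase that inactivates pyruvate dehydrogenase, changed by -2.03 ± 0.031, Pdk3 of the same family by -1.36 ± 0.043, and Pdha1, the catalytic E1 alpha subunit that they phosphorylate, by -1.33 ± 0.038. Pdhb, the E1 beta partner of Pdha1, was called higher (0.20 ± 0.033), as was Pdp1 (0.62 ± 0.053), a phosphatase that reactivates the enzyme. Neither was called on FPKM without the replicate block (limma, adjusted p 0.144 and 0.0737), while both were with it. In supernatant over complete fresh medium the counts were also 10 lower and 3 higher (median -0.50). On FPKM 0 were called higher there (1 with the replicate block). Without the block Pdhb was at 0.065 and Pdp1 at 0.52 (limma, adjusted p 0.611 and 0.185). Adding methionine to supernatant gave 8 higher, 2 lower and 3 not called (median 0.53), with Pdha1 at 1.34 ± 0.038, the pyruvate carboxylase gene Pcx at 1.26 ± 0.051 and Pdhb at -0.18 ± 0.033. The lower count there was 4 with total-read scaling and 0 on FPKM.

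Genes of glutamine entry, citrate export and the shuttles mostly fell without methionine. Of 16 tested, 13 were lower, 2 higher and 1 not called without methionine in fresh medium (median -1.17). Of all genes, 42.3% were called lower there and 43.3% higher. Idh1, the cytosolic isocitrate dehydrogenase gene, had 131 ± 15.4 reads in methionine-free fresh medium, against 1335 ± 102 in complete fresh medium (SD, n = 4 each; log2 fold change -3.34 ± 0.081). Slc25a1, the mitochondrial citrate carrier gene, changed by -2.45 ± 0.049. Mdh1, the cytosolic counterpart of Mdh2, changed by -1.43 ± 0.033 and is named here after its value was seen. Gpt2, the mitochondrial alanine aminotransferase gene, was called higher (0.68 ± 0.044). In supernatant over complete fresh medium 12 were lower, 3 higher and 1 not called (median -1.02). On FPKM 1 was called higher in each of these 2 comparisons. On adding methionine to supernatant 14 were higher and 2 not called (median 0.95). Gpt2 rose again there (1.32 ± 0.044), to 6345 ± 197 reads in supplemented supernatant, against 2546 ± 95.2 in supernatant.

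The lipoate arm of Dlst is made and attached by its own enzymes, among them Lias, which uses S-adenosylmethionine and inserts sulfur. Of 5 genes listed around lipoate attachment (Lias, Lipt1, Lipt2, Gcsh and Mcat), 3 were higher, 1 lower and 1 not called without methionine in fresh medium (median 0.17). Of all genes, 43.3% were called higher there and 42.3% lower. Lipt1, a lipoyltransferase gene, changed by 0.96 ± 0.093, with 316 ± 9.66 reads in methionine-free and 163 ± 21.7 in complete fresh medium (SD, n = 4 each). Lias changed by 0.17 ± 0.051 (limma, adjusted p 0.00287), with no call on FPKM without the replicate block (limma, adjusted p 0.14). The lower one, Lipt2 (-0.45 ± 0.18), lost its call in 6 of the alternatives tried, among them without replicate 0 of either fresh medium (-0.38 and -0.36). In supernatant over complete fresh medium 4 were higher and 1 was not called. On FPKM limma called 1 higher in each of these 2 comparisons. The Lias call in supernatant over complete fresh medium (0.12 ± 0.051) was lost in 8 of the 26 alternatives, with 0.0732 after quantile normalization, 0.115 on FPKM and 0.089 to 0.118 without replicate 2 or 3 of complete fresh medium or replicate 0, 2 or 3 of supernatant (limma, adjusted p 0.0525 to 0.381 over the 8). In supplemented supernatant over supernatant 1 (Lipt2, 1.20 ± 0.18) was higher, 1 (Lipt1, -0.95 ± 0.093) lower and 3 not called. Of 12 genes tested for mitochondrial biogenesis and content, 4 were lower, 5 higher and 3 not called without methionine in fresh medium (median 0.070). In that comparison 85.6% of all genes were called, so these counts do not set the list apart. Vdac1 (-1.59 ± 0.032) and Tomm20 (-0.49 ± 0.034), both of the outer membrane, were lower, while Pprc1 (1.22 ± 0.034), a coactivator, and Tfb2m (1.01 ± 0.043), a mitochondrial transcription factor, were higher. In supernatant over complete fresh medium the counts of this list were again 4 lower, 5 higher and 3 not called, and in supplemented supernatant over supernatant 4 lower, 7 higher and 1 not called. For the first 2 of these comparisons total-read scaling gave 8 higher and 3 lower, and FPKM 3 higher and 2 lower. For the third, FPKM gave 5 higher and 1 lower.

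**Figure D5:**
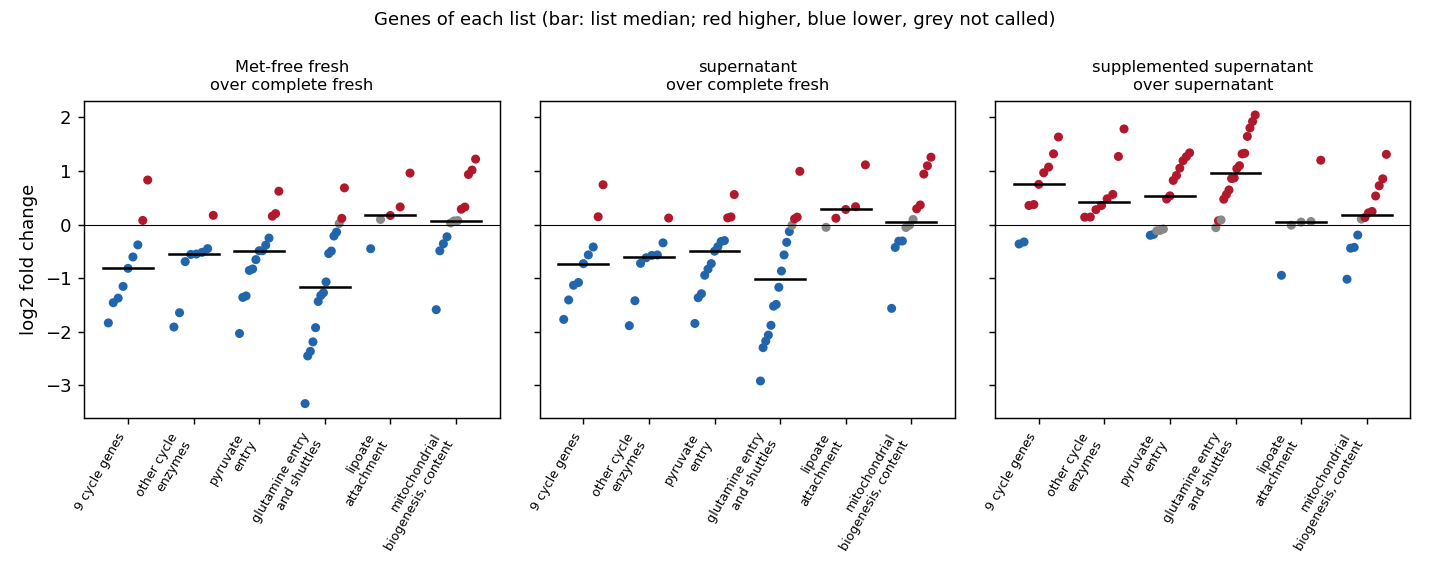
Log2 fold change (vertical axis) of each gene tested in 6 lists, for 3 comparisons, red where called higher, blue where called lower and grey where not called, with a bar at the list median. The lists of cycle, pyruvate and glutamine genes have medians below 0 without added methionine and above 0 when it is added. The lipoate list (medians 0.17, 0.28 and 0.046) and the biogenesis list (0.070, 0.042 and 0.17) have medians above 0 in each panel, with genes on both sides of 0.

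On GRCm38 (GENCODE M21 annotation) the genes lie apart: Cs at chr10:128337734-128362479, Idh3a at chr9:54586334-54604661, Idh3b at chr2:130279309-130284547, Idh3g at chrX:73778963-73786897, Ogdh at chr11:6291633-6356642, Dlst at chr12:85110833-85134845, Suclg1 at chr6:73248382-73276911, Fh1 at chr1:175600374-175625635 and Mdh2 at chr5:135778480-135790398. No chromosome carries more than 1 of them. Besides Fh1 and Kmo, Idh3b overlaps Nop56 on the opposite strand by 5 bases and Cs holds a small nucleolar RNA gene of 135 bases on its own strand.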

How the data were processed

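RNA sequencing of 16 libraries, 4 from each of 4 media, was analysed from 2 deposited tables. The submitters' processing notes name TopHat2 2.0.13 with Bowtie2 2.2.1, Cuffdiff 2.2.1 with Cufflinks, FastQC 0.11.3, and the builds mm10 and GRCm38, without roles or order. The gene counting tool, its strand setting and the annotation are not given in the sources used here. The deposited signal values of 17159 genes, named by the authors as depth-normalized counts, are reads divided by 1 size factor per library. In all 16 libraries 100% of them are whole multiples of the smallest value within 0.001. The FPKM of 23107 genes, as deposited by the authors, are fragments per kilobase of transcript scaled to each library's mapped fragments, and so depend on the transcript length used, which is not given here.

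Depth-normalized values were tested as log2(value + 1) with limma 3.58.1 in R 4.3.3, in 1 fit of group means over all 16 libraries with a trend in the variance. Genes with a mean of at least 10 were kept (12469), and p-values were Benjamini-Hochberg adjusted over them, two-sided, with a threshold of 0.05. Fold changes on the log2(value + 1) scale understate the change of low genes. The fit was tested on simulated counts with known changes. The alternatives were a pseudocount of 10, no filter or a mean of at least 100, total-read scaling, quantile normalization, FPKM (log2(FPKM + 0.1), mean of at least 1, 10944 genes), the replicate number as a block, and leaving out each library. FPKM was tested without and with the block, and FPKM results are without it unless stated. Count tests (edgeR 4.0.16, DESeq2 1.42.0) on the recovered reads of 15 libraries were added after seeing the data. Within groups the 24 pairs of libraries differed by more than sampling noise (mean chi-square per gene 2.58 to 9.01), so none was merged.

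Of the other lists, genes named were those called with the 2 lowest or 2 highest fold changes in a comparison, and for likeness the 2 nearest genes to each member, except where stated. Some listed genes are not reported here and were left out of the list counts. The members and lists were chosen with earlier results of these data known. Promoter windows are from the RefSeq promoter table, and coordinates from GENCODE M21, both on GRCm38.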

Additional observations from a re-analysis of the deposited data

Results flagged for a closer look

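Of 36 groups of 4 libraries screened (9 genes in 4 media), 4 held an outlying library by Dixon's test, where chance gives about 1 in 20. In these the distance of 1 library from its nearest neighbour, divided by the range of the 4, exceeded the 95% critical value. Given to 3 significant digits, Mdh2 had 13400 reads (13353 to the nearest read) in replicate 2 of supplemented supernatant, against 12208 to 12335 in the other 3 libraries. Dlst had 6080 reads (6078) in replicate 3 of supernatant, against 6309 to 6340 in the others. Idh3a had 2420 reads (2418) in replicate 1 of supernatant, against 2524 to 2538. Idh3b had 4400 reads (4396) in replicate 1 of methionine-free fresh medium, against 4594 to 4617. The 4 values fall in 4 different libraries.

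The effect of methionine differed between supernatant and fresh medium for 7 genes by the interaction term of limma. The interaction, supernatant minus fresh, was 0.50 for Dlst, -0.30 for Suclg1, -0.29 for Ogdh, -0.23 for Mdh2, -0.20 for Fh1, -0.19 for Idh3g and -0.14 for Cs on the log2 scale. On FPKM limma called 0 of these 7 without the replicate block, with 3 of the 9 genes at an unadjusted p below 0.05, and 7 of the 9 with the block.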

How the results depend on the processing

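Of 54 values (9 genes in 6 comparisons, the interaction included), 32 kept their direction and their call under all 26 alternatives and 22 changed in at least 1. The cause was not tested. On FPKM limma called 6360 genes for methionine-free over complete fresh medium (10672 on depth-normalized values), 6271 for supernatant over complete fresh medium (10664), 5632 for supplemented supernatant over supernatant (10433), 1823 for supplemented supernatant over complete fresh medium (8106), 29 for supernatant over methionine-free fresh medium (3344) and 696 for the interaction (6557). Among the 9 genes, FPKM gave 1 higher call in place of 2 in each of the first 2 comparisons, with and without the replicate block. For supplemented supernatant over complete fresh medium it gave 1 lower call in place of 5 (4 with the block). For supernatant over methionine-free fresh medium it gave 0 lower and 0 higher (1 at an unadjusted p below 0.05), and 0 lower with the block. For the interaction it gave 0 lower and 0 higher (3 at an unadjusted p below 0.05), and 6 lower and 1 higher with the block. Quantile normalization gave 3 higher calls for supernatant over methionine-free fresh medium, in place of 1. Leaving out 1 library gave 1 to 2 higher calls for methionine-free over complete fresh medium, and 0 to 1 lower and 1 to 2 higher for supernatant over methionine-free fresh medium. Values not called changed sign for Idh3a on FPKM, with and without the block (supplemented supernatant over complete fresh medium -0.0294, supernatant over methionine-free fresh medium -0.0387, interaction 0.0093), and for the Idh3b interaction with total-read scaling (0.003) and quantile normalization (0.0076). Leaving out 1 library gave -0.0427 to 0.0012 for the Idh3b interaction and -0.0198 to 0.043 for Idh3a in supplemented supernatant over complete fresh medium.

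The labels do not say that a replicate number marks a shared mouse or day. Residuals of the 24 same-numbered pairs correlated at -0.067 to 0.068 on depth-normalized values, where 5 of 16 libraries resembled their own number most. In that measure the numbers were not taken as pairing. On FPKM all 24 pairs correlated positively, at 0.081 to 0.49, so libraries of 1 number share deviations there. FPKM fits without the block leave these in the spread. Their source was not tested. With the replicate block on depth-normalized values, 10655, 10654, 10416, 8061, 3291 and 6521 genes were called in the 6 comparisons as ordered above, and no call of the 9 genes changed. On FPKM with the block, 1451 genes were called for supernatant over methionine-free fresh medium and 3804 for the interaction. edgeR on the recovered reads of 15 libraries called 10573, 10680, 10458, 8126, 3095 and 6384 genes in these. The planned edgeR and DESeq2 fits on all 16 libraries were not run, because 1 read in replicate 1 of methionine-free fresh medium is worth nearly 1 unit, too close for the acceptance check to tell whole reads from rounded values. Of all genes called for supplemented supernatant over supernatant, 41.3% were higher with total-read scaling and 57.3% on FPKM, against 5218 higher and 5215 lower on depth-normalized values. For supernatant over methionine-free fresh medium FPKM gave 19 higher and 10 lower, against 1740 and 1604. The split moved by under 10 percentage points under every other scaling.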
